A study of Mus musculus with 6 samples.

Results

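Adipokines are proteins that fat tissue secretes into the blood or onto neighbouring cells. The 9 adipokine genes described here were chosen as a named list and not by how they behaved: Adipoq, Cfd, Retn, Rbp4, Rarres2, Nampt, Agt, Apln and Nrg4. All 9 were among the 25894 genes of the deposited table, and all 9 passed the filter on low values that left 22290 genes for testing. Their transcripts were measured by RNA sequencing of inguinal white adipose tissue, the subcutaneous fat of the groin, from 6 female mice of strain C57 BL/6N, 15 weeks old and fasted for 10 h before the fat was taken. The SF-SR group held 3 mice whose sleep had been fragmented for 8 weeks and left to recover for 2 weeks, and the control group held 3 mice. Each library came from 1 mouse, the groups share strain, sex, age and fasting, and no transgene or drug was named for either. The study's question was which changes in fat persist after the sleep recovery.

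Adiponectin (Adipoq) circulates as trimers and larger multimers and acts on liver, muscle and vessel wall, where it favours insulin sensitivity through Adipor1 and Adipor2. Adipsin (Cfd) is complement factor D, the serine protease that starts the alternative complement pathway by cutting factor B. Resistin (Retn) is in mice a hormone of fat cells that opposes insulin, and retinol-binding protein 4 (Rbp4) carries vitamin A in the blood. Chemerin (Rarres2) is a chemoattractant made by fat cells and activated by cleavage, Nampt makes the precursor of NAD and is also secreted, Agt is angiotensinogen, the substrate of renin, Apln is the precursor of the peptide apelin, and Nrg4 is a neuregulin secreted by brown and beige fat that binds Erbb4.

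None of the 9 genes differed between the groups past the threshold, a false discovery rate of 0.05 over all genes tested in limma, and the fit called 0% of the 22290 genes, of which 1201 had an unadjusted p under 0.05. edgeR and DESeq2 on the recovered reads also called 0 genes. The widest gap was in Rarres2, with a mean normalised value in the SF-SR mice 2.27 times that of controls, and whether it was called depended on control 1. Nampt was the gene whose values in the SF-SR mice all lay below those of the controls, by a narrow margin. Of all genes tested, 3.58% were separated in this way. The log2 difference of Nampt, -0.50, became -0.04 once trends with transcript GC content and length were taken out. That removal can also take out a difference between the groups. Rbp4 took a smaller share relative to Adipoq in each SF-SR mouse than in each control, although neither gene differed between groups by itself. In that ratio 2.97% of all genes were separated below, and the adjusted limma p of Rbp4 was 0.866. Rarres2 was separated above in the same ratio, as were 2.08% of genes, with an adjusted limma p of 0.839.

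The recovered reads per library ran from 15610201 to 19703569, and the fewest reads behind a value of these genes were 58, for Apln in control 2. Fat cell genes were abundant in every library: Plin1, which coats lipid droplets, ranged from 13647 to 21415 in normalised value. Markers of other tissues varied widely. The summed values of 10 B and plasma cell markers ran from 1849 to 35211 in SF-SR mice and from 2140 to 88936 in controls, high in SF-SR 2, control 2 and control 3, with Pax5 listed at 0 in SF-SR 1 and control 1. Summed values of 10 skeletal muscle markers ran from 396 to 81908 in SF-SR mice and from 223 to 10769 in controls, highest in SF-SR 1 and control 2, and Ckm was listed at 0 in SF-SR 3 and control 3. Control 1 stood with the SF-SR mice: over all genes its Spearman correlation was 0.974 with SF-SR 3, 0.963 with SF-SR 1 and 0.955 with SF-SR 2, against 0.915 with control 2 and 0.928 with control 3. The libraries also differed by transcript GC content and length. Spearman's rho between a gene's GC content and its deviation from its own mean was 0.194, 0.498 and 0.185 in SF-SR 1, 2 and 3 and 0.207 in control 1, but -0.378 in control 2 and -0.395 in control 3. Several results are therefore also given without single libraries, with these trends removed, or with the B and plasma cell level as a covariate. The sign of the GC trend divided the SF-SR mice from controls 2 and 3. Removal of the trend can thus also take out a difference between the groups, and these cannot be told apart.

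The levels of these genes spanned a wide range. Per kilobase of the longest protein-coding transcript, the normalised value over the 6 mice was 83337 ± 51901 (SD, n = 6) for Cfd, which ranked 11 among 22262 genes, and 21295 ± 8508 for Adipoq, which ranked 25. Retn followed at 11387 ± 4779 (rank 61), Rbp4 at 3542 ± 1266 (rank 246) and Rarres2 at 1283 ± 805 (rank 744). The order Cfd, Adipoq, Retn, Rbp4, Rarres2 held between neighbours in 6 of 6 mice. The ratio of neighbours within a mouse was smallest for Adipoq over Retn, from 1.44 to 2.53. Below them Nrg4 at 751 ± 185 and Nampt at 750.3 ± 175 could not be ordered, since Nrg4 was the higher in 3 of 6 mice, and Rarres2 exceeded Nrg4 in 4 of 6. Agt reached 227 ± 180.5 and Apln 44.3 ± 16.4 per kilobase. With the median transcript length of each gene, Nampt moved to the fifth place at 3317 per kilobase, since its longest transcript has 4527 bases and its median transcript 1024. Reads of the 9 genes together made up 0.888 ± 0.345% of all reads in SF-SR mice (SD, n = 3) and 0.559 ± 0.276% in controls, and most of them came from Cfd. In a bulk sample of tissue, fewer cells of a type and less RNA per cell cannot be told apart.

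**Figure D1:**
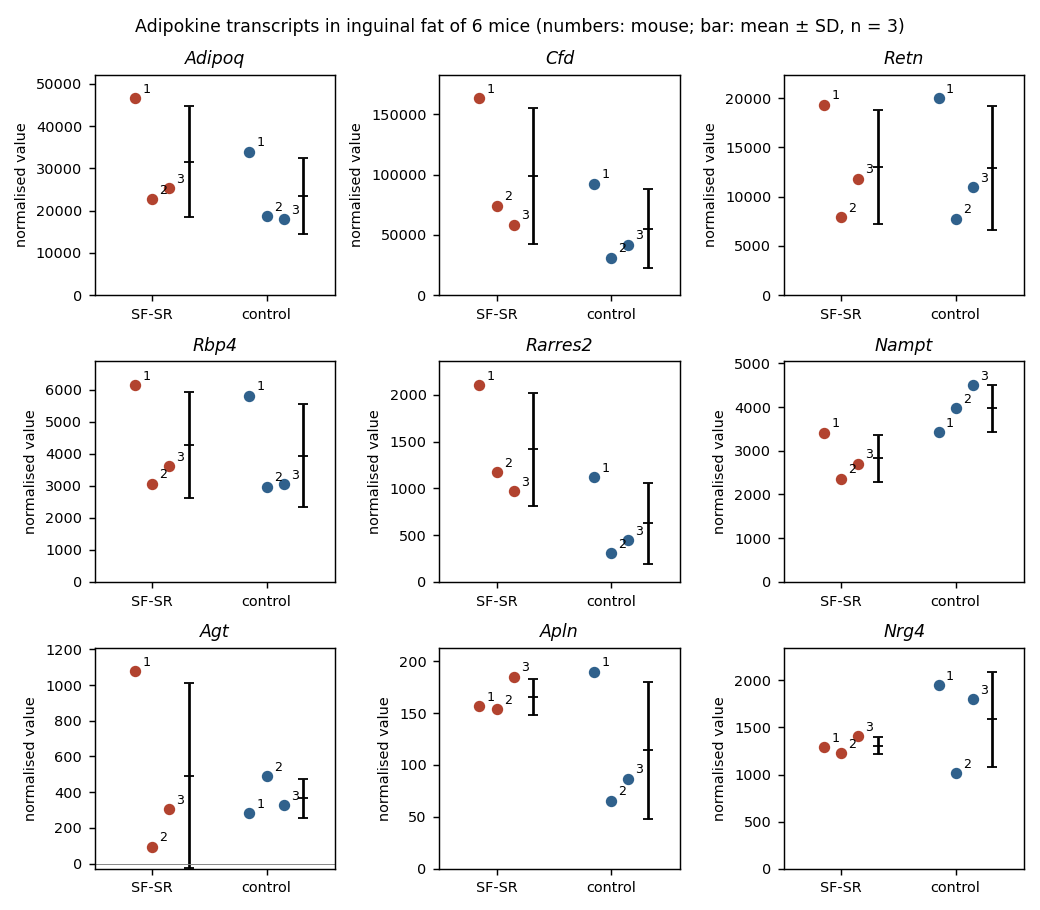
Normalised values (read counts divided by a size factor) of the 9 adipokine genes in each mouse, with the group mean and SD as a bar beside the points (n = 3 per group). The numbers name the mouse. Control 1 lies near the SF-SR mice for Cfd, Rarres2 and Apln, and Nampt is the gene whose groups do not overlap. Of all genes tested, 3.58% were separated below the controls as Nampt was.

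The upstream sequences of 3 genes whose values ran close together across mice (Adipoq, Rbp4 and Retn) and of Nampt, the gene whose groups separate, are printed here to show how different they are. Each holds the 250 bases before a RefSeq start in the build GRCm38.p6, read 5′ to 3′ on the gene's strand, and RefSeq lists 2 starts for Rbp4. A start was listed for 8 of the 9 genes. Capitals mark matches, on either strand, to 4 motifs, namely the CCAAT box, the TATA box spelled TATAAA, a form of the C/EBP site spelled TTGCNNAA (N is any base) and the GC box spelled GGGCGG. The windows lie at chr16:23146286-23146535 (plus strand) for Adipoq, at chr19:38124812-38125061 and chr19:38125322-38125571 (minus strand) for the 2 starts of Rbp4, at chr8:3655520-3655769 (plus strand) for Retn and at chr12:32820085-32820334 (plus strand) for Nampt.
Adipoq: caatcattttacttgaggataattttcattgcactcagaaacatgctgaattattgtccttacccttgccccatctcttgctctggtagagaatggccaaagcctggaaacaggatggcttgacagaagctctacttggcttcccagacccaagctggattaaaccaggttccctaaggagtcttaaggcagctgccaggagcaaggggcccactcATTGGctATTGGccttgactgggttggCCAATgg
Rbp4, downstream start: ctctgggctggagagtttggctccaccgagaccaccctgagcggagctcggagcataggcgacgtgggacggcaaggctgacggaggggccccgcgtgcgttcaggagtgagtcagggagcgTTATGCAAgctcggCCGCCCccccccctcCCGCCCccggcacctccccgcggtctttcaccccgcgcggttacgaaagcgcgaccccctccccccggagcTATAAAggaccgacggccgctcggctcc
Rbp4, upstream start: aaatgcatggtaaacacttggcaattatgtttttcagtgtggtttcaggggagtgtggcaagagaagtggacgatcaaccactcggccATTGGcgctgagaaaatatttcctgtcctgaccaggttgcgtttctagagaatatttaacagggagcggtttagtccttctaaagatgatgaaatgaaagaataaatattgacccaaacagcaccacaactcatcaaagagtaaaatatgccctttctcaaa
Retn: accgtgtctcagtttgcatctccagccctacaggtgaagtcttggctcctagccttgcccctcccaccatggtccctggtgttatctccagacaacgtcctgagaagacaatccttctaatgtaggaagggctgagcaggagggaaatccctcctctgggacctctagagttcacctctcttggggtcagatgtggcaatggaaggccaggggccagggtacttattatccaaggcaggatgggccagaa
Nampt: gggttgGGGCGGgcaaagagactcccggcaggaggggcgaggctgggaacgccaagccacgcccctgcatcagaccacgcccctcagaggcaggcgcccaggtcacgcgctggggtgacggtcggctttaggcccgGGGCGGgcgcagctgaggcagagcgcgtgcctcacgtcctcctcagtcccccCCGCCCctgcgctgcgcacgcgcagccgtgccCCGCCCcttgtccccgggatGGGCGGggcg

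Adipoq holds 3 CCAAT matches, beginning at -34, -27 and -7 from its start, and no CG pair in the window, which is 48.8% G and C. The downstream start of Rbp4 is 70.8% G and C with 28 CG pairs, and holds TATAAA at -28, TTGCNNAA at -128 and 2 GGGCGG matches. Retn holds no match to any of the 4 motifs, and Nampt holds 5 GGGCGG matches in a window of 75.6% G and C. Over the 32851 windows of the same length in the RefSeq table, CCAAT occurred in 33.8%, TATAAA in 12.4%, TTGCNNAA in 9.56% and GGGCGG in 32.7%. The matches are a description of these letters and were not related to the values.

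Adipoq had a normalised value of 46595 in SF-SR 1, 22739.7 in SF-SR 2 and 25254 in SF-SR 3, and of 33936, 18669 and 17886 in controls 1, 2 and 3. The highest SF-SR mouse and control 1 stood above the remaining mice, and the groups overlapped. The group means were 31529 ± 13107 in SF-SR mice and 23497 ± 9049 in controls (SD, n = 3), and the log2 difference was 0.41 ± 0.40 (SE) with an adjusted p of 0.759 in limma. Its 95% interval ran from -0.48 to 1.31. For Adipoq the value without control 1 was 0.71, and without SF-SR 1 it was 0.09. It was 0.28 without control 2, 0.25 without control 3, 0.26 after removal of both trends, 0.17 with the B and plasma cell covariate and -0.04 without SF-SR 1 and control 2 together.

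The adiponectin receptors Adipor1 and Adipor2 had log2 differences of -0.25 ± 0.24 and -0.16 ± 0.28, and Cdh13 (T-cadherin, which binds adiponectin multimers) had 0.53 ± 0.29, with adjusted limma p from 0.697 to 0.862. In this list of 8 genes of receptors and signalling, 3 were higher and 5 lower, with a median log2 difference of -0.205 against 0.02 over all 22290 genes. Of the list, 1 gene reached an unadjusted p under 0.05, Prkaa1 (an AMPK catalytic subunit) at -0.64 ± 0.28, and it was -0.17 once GC content and length trends were taken out. Across all genes 5.39% had such a p. Of 8 genes for the folding and release of adiponectin (among them P4hb, Ero1l and Erp44, which act on disulfide bonds), 6 were higher and 2 lower, with a median of 0.25, and none had an unadjusted p under 0.05. P4hb, the most abundant of them, was 0.02 ± 0.24. The 2 lower genes were Ero1l at -0.55 ± 0.33 and Erp44 at -0.50 ± 0.26. With GC content and length trends taken out they were -0.151 and -0.265. Of 8 paralogs of adiponectin, C1qtnf9 reached an unadjusted p of 0.017 and was 1.05 ± 0.36 higher on the log2 scale (adjusted p = 0.697, limma). The values of C1qtnf9 were 514, 485 and 326 in SF-SR mice and 338, 162 and 167 in controls. SF-SR 3 thus lay below control 1 and the groups overlapped. With both trends taken out, C1qtnf9 was 0.76. C1qtnf12 and C1qtnf1, the most abundant paralogs, were 0.38 ± 0.35 and 0.08 ± 0.27.

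Cfd had a normalised value of 163493 in SF-SR 1, 74137 in SF-SR 2 and 58373 in SF-SR 3, against 92445, 30831 and 41740.0 in controls 1, 2 and 3. SF-SR 1 held by far the most, control 1 lay above SF-SR 2 and 3, and the groups overlapped. Cfd differed by 0.86 ± 0.55 on the log2 scale, with an adjusted p of 0.698 in limma and an interval from -0.38 to 2.10. It was 0.42 without SF-SR 1, 1.31 without control 1 and 0.24 once GC content and length trends were taken out. Without the 2 libraries highest in muscle markers, SF-SR 1 and control 2, it was 0.08.

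Of 10 other genes of the alternative complement pathway, none passed the threshold and all 10 overlapped between groups. Their log2 differences were positive for 3 and negative for 7 with a median of -0.39, where 10796 of the 22290 genes tested were negative. C3, the central component, had values of 32588, 20418.5 and 18674 in SF-SR mice and of 23882, 34805 and 35745 in controls. C3 was -0.42 ± 0.35 (adjusted p = 0.731, limma). Cfb, the substrate of adipsin, was at 7.46 to 29.0 in all 6 mice in normalised value. C3 overlapped between the groups.

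Retn had 19337, 7911 and 11838 in SF-SR 1, 2 and 3, and 20011, 7767 and 10957 in controls 1, 2 and 3. SF-SR 1 and control 1 were high, SF-SR 2 and control 2 were low, and the groups overlapped almost wholly. Retn had a log2 difference of 0.03 ± 0.43, with an interval from -0.93 to 0.99 and an adjusted p of 0.986 in limma. Of 4 other genes around resistin, Tlr4 (a receptor to which human resistin binds) had an unadjusted p of 0.0386 at -0.89 ± 0.37, with adjusted p of 0.697 in limma, and -0.42 once GC content and length trends were taken out. Cap1 (a receptor for human resistin) was -0.03 ± 0.24. Retnla, a resistin-like molecule of alternatively activated macrophages, was 0.98 ± 0.56.

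Rbp4 had 6149.99, 3071 and 3612 in SF-SR mice and 5813, 2967 and 3058 in controls, with the first mouse of each group the high one, and a log2 difference of 0.12 ± 0.35 (adjusted p = 0.922, limma). Of 14 other genes of retinol transport and signalling, 9 were higher and 5 lower. Dhrs3, which reduces retinaldehyde and was the most abundant of the list, was at 2859, 2533 and 2645 in SF-SR mice and at 3153, 1126 and 1317 in controls, with control 1 the highest of all. Its log2 difference was 0.68 ± 0.36 (adjusted p = 0.697, limma). Aldh1a1, which makes retinoic acid, was 0.12 ± 0.38.

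Rarres2 had 2104, 1172 and 969 in SF-SR mice 1, 2 and 3, and 1120.2, 307 and 446 in controls 1, 2 and 3. The SF-SR values were higher than controls 2 and 3 in every case, and SF-SR 3 lay below control 1. The group means were 1415 ± 605 and 624 ± 435 (SD, n = 3). The fit gave a log2 difference of 1.32 ± 0.47, with an interval from 0.26 to 2.37, an unadjusted p of 0.0195 and an adjusted p of 0.697 in limma. Among the 9 genes it was the 1 with an unadjusted p under 0.05.

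Without control 1 the same fit gave Rarres2 1.85 ± 0.35 with an adjusted p of 0.0398, and 1 of the 9 genes was called against 3.79% of all genes tested. With limma-voom and quality weights, where control 1 had the lowest weight, it was 1.57 with an adjusted p of 0.0462, and 6.34% of genes were called. Once GC content and length trends were taken out it was 0.88, and with the same and no control 1 it was 1.22 with an adjusted p of 0.206. Other libraries moved it the other way: it was 0.92 without control 2, 0.99 without SF-SR 1 and 0.59 without the 2 libraries highest in muscle markers, SF-SR 1 and control 2, with adjusted limma p of 0.936, 0.875 and 0.959. The exons of Rarres2 overlap those of Lrrc61 on the opposite strand, and the counting was not stated to use strand; the mean value of Lrrc61 was 159.75. Of the chemerin receptors, Cmklr1 was 0.25 ± 0.30 and Ccrl2 0.43 ± 0.46, and Gpr1 was -0.59 ± 0.53, with none past the threshold.

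Nampt had 3417, 2357 and 2699.6 in SF-SR mice and 3429.8, 3974 and 4502 in controls. Each SF-SR mouse lay below each control, although SF-SR 1 and control 1 differed by little, and 1 of the 9 genes was thus separated below, against 3.58% of the 22290 genes tested. None was separated above, against 5.02%. Nampt had a log2 difference of -0.50 ± 0.24, with an interval from -1.04 to 0.04 and an adjusted p of 0.697 in limma. Nampt transcripts are 40.3% G and C, where the median gene tested has 49.4%, and the difference was -0.04 ± 0.26 once GC content and length trends were taken out. It was 0.07 with those removed and control 1 left out, so its direction turned.

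Of 16 genes that make or use NAD, 6 were higher and 10 lower with a median of -0.19, and 3 of them, Nadk2, Sirt1 and the mitochondrial NAD carrier Slc25a51, were separated below controls, against 3.58% of all genes tested. Slc25a51 was -0.27 ± 0.22, and -0.12 once GC content and length trends were taken out. Nadk, the cytosolic NAD kinase and the most abundant of the list, was -0.11 ± 0.23. Nadk2 (mitochondrial NAD kinase) was -0.76 ± 0.27 with an unadjusted p of 0.0188, Sirt1 (a NAD-dependent deacetylase) -0.66 ± 0.27 and Cd38 (an NAD glycohydrolase) -1.07 ± 0.47, all with adjusted limma p of 0.697. Once GC content and length trends were taken out they were -0.47, -0.35 and -0.73. Cd38 was at 726, 649 and 571 in SF-SR mice and at 562, 2393 and 1840 in controls. B cells also express Cd38. The B and plasma cell markers were high in SF-SR 2, control 2 and control 3, and Cd38 was not raised in SF-SR 2. The part of B cells in its value was not tested.

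Agt had the widest spread of the 9 genes. It was 1077 in SF-SR 1, 95.6 in SF-SR 2 and 303 in SF-SR 3, and 283.5, 491 and 328 in controls 1, 2 and 3. SF-SR 1 was the highest and SF-SR 2 the lowest of all 6 mice, 11.3 times apart. In limma the log2 difference was -0.18 ± 0.71, with an interval from -1.78 to 1.42. It was 0.42 in edgeR, -1.06 without SF-SR 1 and 0.68 without SF-SR 2, so no direction can be given.

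Of 12 other genes of the renin-angiotensin system, 5 were higher and 7 lower with a median of -0.11. Agtr1a, the angiotensin receptor, was 0.49 ± 0.38, and Ace, the converting enzyme, 0.09 ± 0.23. Lnpep and Mme, peptidases that cleave angiotensin peptides, were -0.98 ± 0.43 and -0.70 ± 0.29, with unadjusted p of 0.0475 and 0.0391 and adjusted limma p of 0.697. Once GC content and length trends were taken out Mme was -0.05 and Lnpep -0.42.

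Apln had 157, 154 and 185 in SF-SR mice and 189.7, 65.6 and 86.9 in controls. Control 1 was the highest of all 6 mice and the other 2 controls the lowest. The log2 difference was 0.68 ± 0.44 (adjusted p = 0.70, limma), and without control 1 it was 1.11 with an adjusted p of 0.0994. It was 0.36 without control 2 and 0.54 once GC content and length trends were taken out. Its receptor Aplnr was -0.26 ± 0.25.

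Nrg4 had 1291, 1228 and 1406 in SF-SR mice and 1948, 1013 and 1800.2 in controls. The SF-SR mice lay close together, with an SD of 90.1 against 503 in controls, and the groups overlapped. The log2 difference was -0.22 ± 0.28 (adjusted p = 0.806, limma). Without control 1 it was -0.05, and without control 2 it was -0.52. Exons of Nrg4 overlap those of Fbxo22 on the opposite strand, which had a mean value of 633. The receptors Erbb3 and Erbb4 were 0.08 ± 0.43 and -0.46 ± 0.55, and their relative Egfr was -0.20 ± 0.29.

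**Figure D2:**
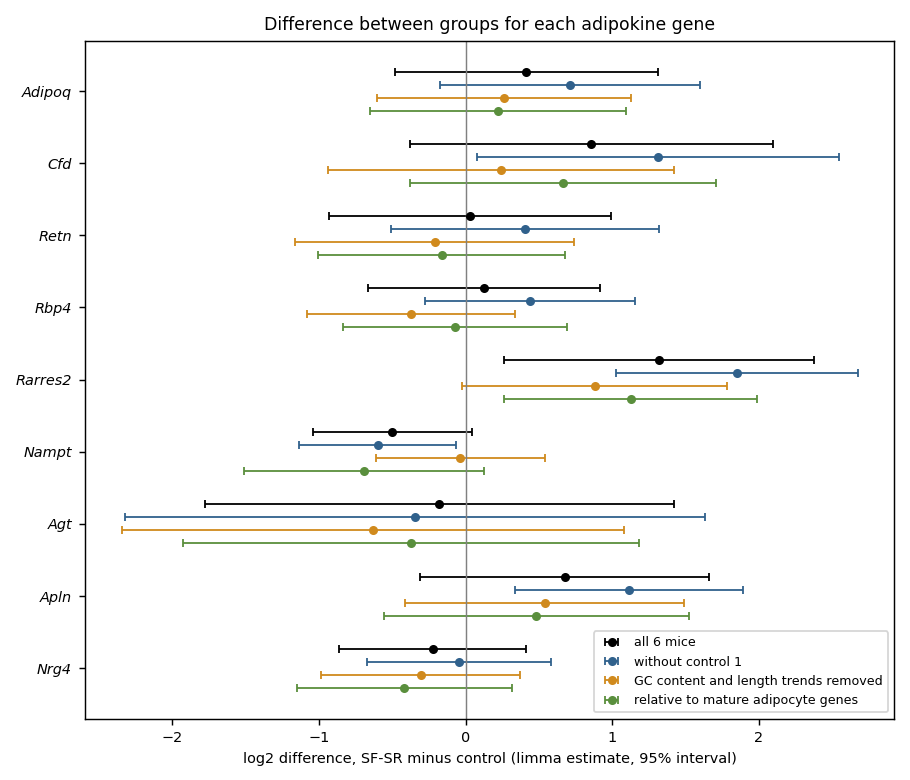
Log2 difference between SF-SR and control mice for each adipokine gene, with its 95% interval in limma, in the fit of all 6 mice, without control 1, after GC content and length trends were taken out, and relative to the mature adipocyte genes. In the fit of all 6 mice the interval of Rarres2, 0.26 to 2.37, is the one that leaves out 0.

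Relative to 21 mature adipocyte genes that include none of the 9, the differences were 0.22 for Adipoq, 0.66 for Cfd, 1.13 for Rarres2 and -0.69 for Nampt, all with adjusted limma p of 0.884 or more. The median over all genes was -0.17 on that scale. The mean log2 value of the adipocyte list was 13.98, 13.61 and 13.50 in SF-SR mice and 13.92, 13.01 and 13.57 in controls, so control 2 held the least. With the B and plasma cell level as a covariate, Rarres2 was 0.99 ± 0.36 and Retn -0.32 ± 0.33, with adjusted p of 0.929 and 0.935.

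The ratio of each gene to Adipoq within a mouse does not depend on the library's scaling. Rbp4 stood at 0.132, 0.135 and 0.143 of Adipoq in SF-SR mice and at 0.171, 0.159 and 0.171 in controls. The groups did not overlap, and the SDs of the log2 ratio were 0.06 in both. The log2 ratio differed by -0.29, and the exact two-sided permutation test gave p = 0.1, the smallest that 3 mice against 3 allow, and 0.4 after adjustment over 8 ratios. In limma over all 22289 genes set against Adipoq, its adjusted p was 0.866, and 2.97% of genes were separated below and 2.08% above.

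Rarres2 was the other gene separated from controls in this ratio. Its ratio was 0.0451, 0.0515 and 0.0384 in SF-SR mice and 0.033, 0.0165 and 0.0249 in controls, 0.91 higher on the log2 scale with the same exact p of 0.1. Once GC content and length trends were taken out both stayed separated, at -0.63 for Rbp4 and 0.62 for Rarres2. The share of all genes separated on that scale was not computed, and the adjusted limma p of Rbp4 was 0.907. Cfd over Adipoq was 3.51, 3.26 and 2.31 against 2.72, 1.65 and 2.33, and overlapped. The ratio of Cfd was 0.44 higher on the log2 scale, and -0.02 with the trends removed.

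**Figure D3:**
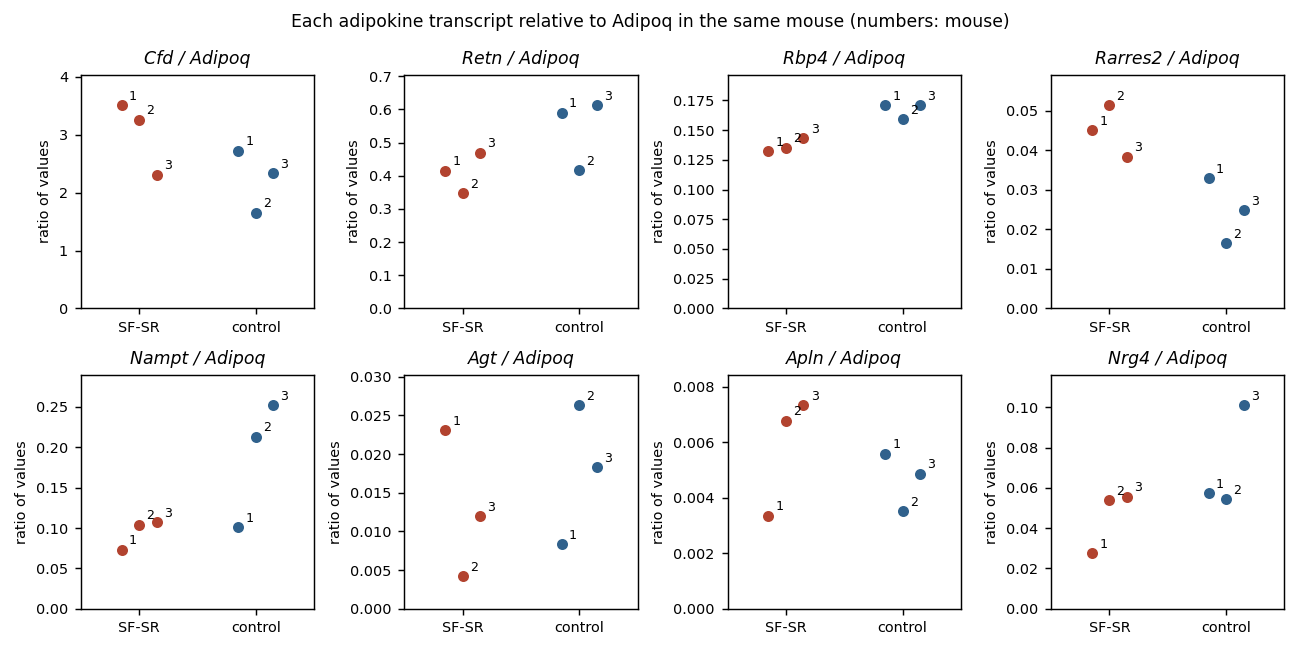
Ratio of the normalised value of each other adipokine gene to that of Adipoq in the same mouse, in SF-SR mice and controls, with the mouse number beside each point. Only the ratios of Rbp4 (0.132 to 0.143 against 0.159 to 0.171) and of Rarres2 (0.0384 to 0.0515 against 0.0165 to 0.033) do not overlap between groups. Over all genes set against Adipoq, 2.97% were separated below and 2.08% above.

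Across the 6 mice the 9 genes followed a few shared courses. Likeness is given as the root mean square difference between the genes' log2 deviations from their own means, over 6 mice. Adipoq and Rbp4 were the closest pair at 0.153, then Retn and Rbp4 at 0.184, Cfd and Rarres2 at 0.269 and Adipoq and Retn at 0.29. Agt was far from every other gene, with differences from 0.893 to 1.331. The pairs share the 6 libraries with their depth and composition, and these values are a description.

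Among 11434 genes with a mean value of at least 100, those closest to Adipoq were Prdx4 at 0.057, Fcf1 at 0.076 and Sqor at 0.083. Closest to Rbp4 were Prdx1 at 0.06, Trpt1 and 0610009B22Rik, and closest to Retn were Cela1, Gstz1 and Gsta4, with 0.14 for Cela1. Cfd was closest to Scp2-ps2 at 0.16, Dbi and Mgl2, and Rarres2 to Id1 at 0.119, 2810025M15Rik and Smim11. Nampt was closest to Strap at 0.042 and Cnbp at 0.044, Nrg4 to Sdha at 0.066, Eno1 and Sucla2, and Apln to Timm23 at 0.064, Cd9 and Cmtm8. The closest gene to Agt, Akr1c14, was still at 0.405.

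**Figure D4:**
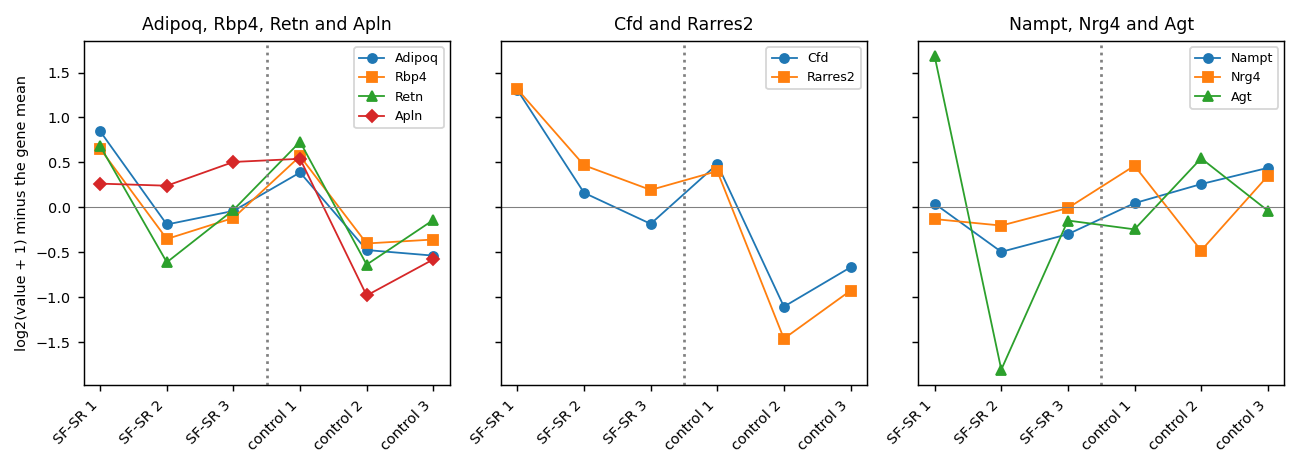
Log2(value + 1) of each adipokine gene minus its own mean over 6 mice, in 3 panels of genes. Adipoq, Rbp4 and Retn peak in SF-SR 1 and control 1, Cfd and Rarres2 are lowest in controls 2 and 3, and Agt swings between SF-SR 1 and SF-SR 2.

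Of 19 other adipokines and related genes outside the list, not all of them secreted, 13 were higher and 6 lower, with a median of 0.44. Gpihbp1, an endothelial anchor of lipoprotein lipase, was 1.13 ± 0.48 with an unadjusted p of 0.0403 and an adjusted p of 0.697 in limma. Its values of 3590, 2052 and 2032 in SF-SR mice overlapped those of 2589, 829 and 659 in controls. With GC content and length trends taken out, Gpihbp1 was 0.76. Sfrp5 and Fgf21 were separated above the controls, 2 of the 19 genes against 5.02% of all genes tested. Sfrp5, a secreted inhibitor of Wnt signals, was at 170.0, 118 and 120.1 in SF-SR mice and at 62.9, 71.2 and 96.9 in controls, 0.81 ± 0.39 on the log2 scale with an adjusted p of 0.697 in limma, and 0.22 once GC content and length trends were taken out. Fgf21, at 2.02 ± 0.86, stood at 6.07 to 10.8 against 0 to 3.39, a few reads per library. With both trends taken out, Fgf21 was 1.55. Angptl4, the most abundant of that list, was 0.49 ± 0.32.

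Of 18 transcription factors and other regulators of adipokine genes, among them the deacetylase Sirt1, 10 were higher and 8 lower with a median of 0.13. Pparg, the regulator of fat cell differentiation, was 0.06 ± 0.33 and Cebpa 0.20 ± 0.28. Cebpb was 1.48 ± 0.54 higher with an unadjusted p of 0.0208 (adjusted p = 0.697, limma), at 782, 1038 and 2063 in SF-SR mice and 1022, 274 and 273 in controls. SF-SR 1 lay below control 1, and Cebpb was 0.64 once GC content and length trends were taken out. In the other direction, Sirt1 was -0.66 with an unadjusted p of 0.0367 (adjusted p = 0.697, limma).

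**Figure D5:**
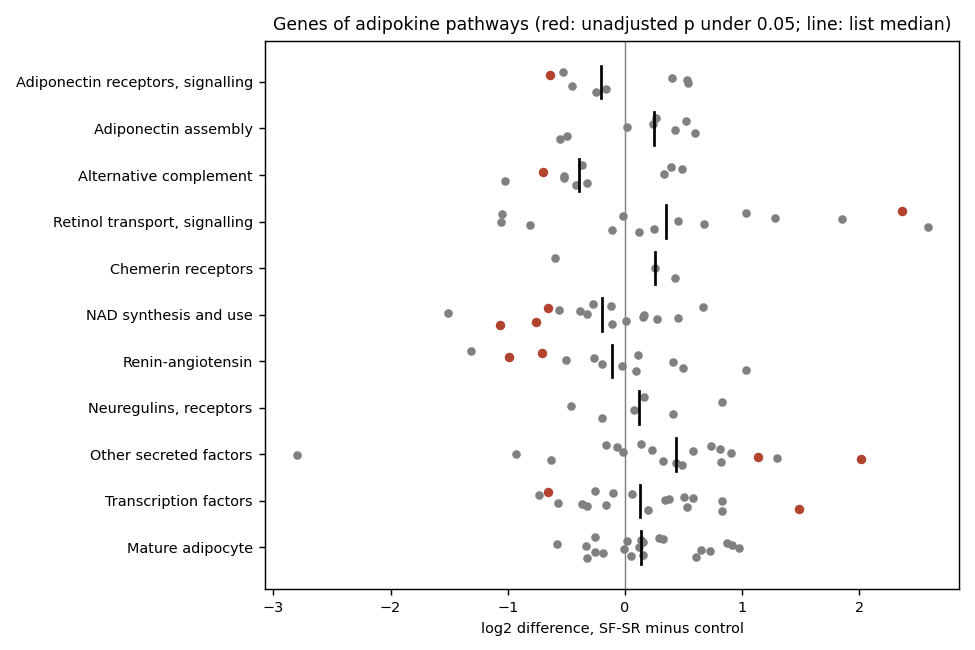
Log2 difference between SF-SR and control mice for every tested gene in 11 of the lists around the adipokines; the shorter lists around resistin and apelin and the paralogs of adiponectin are not drawn. Each grey point is a gene, red points have an unadjusted limma p under 0.05, and the line is the list median. In the lists drawn the median runs from -0.39 for alternative complement to 0.44 for the other adipokines and related genes. The latter are labelled other secreted factors, although not all of them are secreted.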

How the data were processed

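The submitters' processing notes name the build mm8 and the tools HISAT2 2.0.5, featureCounts 1.5.0-p3 and CASAVA; how the values were scaled is not given in the sources used here. The deposited table holds a signal value per gene and library. Divided by its smallest step, 100% of each library's deposited values came out whole within 0.02, so they act as read counts over 1 size factor per library. limma 3.58.1 (R 4.3.3) with an intensity trend was fitted on log2(value + 1), which understates changes of low genes, for 22290 genes whose mean value reached 1, two-sided, with Benjamini-Hochberg adjustment over all of them. On the recovered reads, edgeR 4.0.16 called 0 of 16141 genes (754 at an unadjusted p under 0.05) and DESeq2 1.42.0 called 0 (1186, with 118 adjusted p given as NA). Trends with GC content and length, taken from the longest protein-coding transcript where a gene has one, were removed by regression in some alternatives. Ratios to Adipoq were tested with an exact permutation test. Lengths came from a reference annotation of another build than mm8, and the upstream windows from RefSeq. Gene symbols were matched to 25861 identifiers. The limma fit alone was tested on simulated counts, which held no differences in tissue content or GC trend between libraries. The other steps were not tested on simulated data. The 9 genes, the pathway lists and the tests were chosen with earlier results of these data known. Named by rule were the 9 genes, in each pathway list the partners of a member by role, the 2 most abundant genes and any gene with an unadjusted p under 0.05, up to 4 a list, and for each member the 3 most similar genes. Some genes that this rule names are not reported here. The limma p-values set a difference against the spread between these mice, estimated with help from all genes tested. The exact p-values compare it with every other division of the same mice.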

Additional observations from a re-analysis of the deposited data

How the results depend on the processing

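The count of genes past the threshold was 0 in the fit of all 6 mice and ran from 0 to 844 when each mouse was left out in turn, with 844 without control 1, and the count among the 9 adipokine genes ran from 0 to 1. limma-voom with quality weights called 1023 genes and 1 of the 9, Rarres2. Without control 1 and with GC content and length trends removed, 33 genes were called. The cause was not tested. That alternative was chosen after seeing the data. The removal of the trends in all 6 mice, the B and plasma cell covariate and the ratios to Adipoq were also not planned beforehand. The labels do not say whether equal replicate numbers pair the mice, and the correlations cannot settle it. The same-number correlations were 0.177, 0.393 and 0.042. SF-SR 1 and SF-SR 2 correlated best with the control of their own number, and SF-SR 3 best with control 1 at 0.208. With the replicate block 0 genes were called, and 2676 had an unadjusted p under 0.05 against 1201 without it. Rarres2 was then 1.32 with an unadjusted p of 0.000706 and an adjusted p of 0.37 in limma.

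Signs turned in these cases. Agt was 0.423 in edgeR and 0.421 in DESeq2. Without the 2 libraries highest in muscle markers Adipoq was -0.04, Retn -0.614 and Rbp4 -0.34. Relative to the adipocyte list Retn was -0.164 and Rbp4 -0.069. Once GC content and length trends were taken out they were -0.21 and -0.374, with the B and plasma cell covariate -0.319 and -0.134, and with the trends and control 1 removed Rbp4 was -0.276 and Nampt 0.072. Leaving out 1 mouse at a time, Retn ran from -0.303 to 0.402, Rbp4 from -0.171 to 0.44 and Agt from -1.063 to 0.678. The sign of each remaining gene was kept under every alternative run. Rbp4 relative to Adipoq stayed between -0.634 and -0.265 in the 7 alternatives run on it. Per kilobase levels by median transcript length were 30053 for Adipoq, 5417 for Rbp4, 3317 for Nampt and 1537 for Nrg4. The precision is limited by 3 mice a group, and for Apln also by depth, with 58 reads in control 2.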
